A study of Mus musculus and Rattus norvegicus with 79 samples.

Results

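The regions described here are 1696 binding regions (peaks) of the glucocorticoid receptor (GR) in mouse liver that lie beside genes, and the genes next to them. They were taken from the authors' list of 5772 concordant GR peaks (mm10) by position only: a peak was kept when it overlapped no RefSeq gene interval and its nearest gene interval was at most 25 kb away. These flanking peaks are 29.4% of the list, 3682 peaks (63.8%) lay inside a gene and 394 (6.83%) lay farther than 25 kb from any. The study compared gene expression in the liver with and without food, and with and without GR in hepatocytes, in mice kept in light and dark cycles and trained to eat at night.

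GR was immunoprecipitated from liver at ZT10 (zeitgeber time, hours after lights on), before food, from unfed C57BL/6 mice without virus, under which the concordant list is filed, and from unfed GFP and CRE livers. One list was called with input as control and one with CRE chromatin, as the names of the lists give it. The descriptions of the C57BL/6 GR and input samples carry each other's sample number, so which of that pair is the immunoprecipitation rests on their titles. CRE and GFP livers came from Nr3c1fl/fl mice, whose GR gene carries loxP sites. In the CRE livers, AAV-tbg-CRE had been injected 10 days earlier to delete Nr3c1. In the GFP livers, which carry the same floxed alleles, AAV-tbg-GFP was injected in its place. The labels do not say which samples were combined into the concordant list, and it cannot be split by replicate here. The tbg promoter acts in hepatocytes, so other liver cells of CRE livers keep the gene. CRE and GFP livers were taken at 6 times, of which ZT10 and ZT12 were before food and ZT13, ZT14, ZT18 and ZT22 after it. Food and hour thus changed together in these livers and cannot be told apart. There were 3 libraries of total RNA depleted of ribosomal RNA per group and time. In a second experiment, fed and unfed C57BL/6 livers without virus were taken at ZT13, ZT14, ZT18 and ZT22, with 3 libraries per group and hour, beside 3 unfed livers at ZT10. The labels do not say whether the replicates are separate animals, so p-values measure the spread between these libraries.

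GR is a nuclear receptor that moves into the nucleus when it binds cortisol or corticosterone and recruits the transcription machinery to DNA elements close to, inside or far from genes. In the liver it is known for inducing gluconeogenic and amino acid catabolic enzymes during fasting, often together with the factors C/EBP, HNF4, FOXA and STAT5. A region beside a gene may act on that gene, on another one or on none, so "the gene beside a peak" means here only the nearest gene interval.

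The sequences of a few flanking peaks show what such a region looks like where it reaches a promoter. Promoter windows (250 bases before to 50 after the start, RefSeq, GRCm38.p6, which has the coordinates of mm10) were at hand for 32817 starts, and 63 flanking peaks touched 66 of these windows of 64 genes. Sequence of other flanking peaks was not used here. Shown are 6 of the 11 stretches of at least 50 bases where peak and window overlap at genes that differed between CRE and GFP livers; they were chosen after the values of these genes were seen. Lcn2 encodes lipocalin 2, Ip6k2 an inositol hexakisphosphate kinase, Apoh a plasma glycoprotein, Fga a fibrinogen chain, Hpgd a prostaglandin dehydrogenase and Acot2 a mitochondrial acyl-CoA thioesterase. In CRE livers Apoh was lower (log2 fold change -0.23 ± 0.04, edgeR adjusted p = 9.42e-05) and Hpgd higher (0.34 ± 0.08, adjusted p = 0.00282), and the other 4 are described below. Each is written 5′ to 3′ on its gene's strand. Capitals mark the best match to the full GR element (AGAACA, 3 free bases, TGTTCT) on either strand where it had at most 3 mismatches over the 12 fixed letters (the first of 2 equally good places in Apoh and in Hpgd), and exact matches, on either strand, to its repeat TGTTCT, to the FOXA motif TGTTTAC, to the C/EBP motif TTGCNNAA and to the nuclear receptor hexamer AGGTCA. Motifs can overlap, and the STAT5 motif TTCNNNGAA is not capitalised. In the stretches not shown (9030616G12Rik, Depdc7, Ech1, Tm4sf4 and Gm29669) the best match to the GR element had 4 or 5 mismatches. The 6 shown therefore hold marked GR element matches more often than the 11 do.
Lcn2 (chr2:32387861-32387989, minus strand): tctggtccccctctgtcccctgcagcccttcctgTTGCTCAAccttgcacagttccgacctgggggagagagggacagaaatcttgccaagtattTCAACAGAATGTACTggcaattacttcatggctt
Ip6k2 (chr9:108783562-108783639, plus strand): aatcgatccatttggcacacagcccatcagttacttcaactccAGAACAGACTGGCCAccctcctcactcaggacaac
Apoh (chr11:108395082-108395290, plus strand): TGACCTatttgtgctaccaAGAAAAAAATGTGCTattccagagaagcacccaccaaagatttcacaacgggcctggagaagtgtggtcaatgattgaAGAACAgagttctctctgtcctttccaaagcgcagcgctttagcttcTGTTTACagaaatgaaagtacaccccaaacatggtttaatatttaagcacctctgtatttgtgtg
Fga (chr3:83025903-83026091, plus strand): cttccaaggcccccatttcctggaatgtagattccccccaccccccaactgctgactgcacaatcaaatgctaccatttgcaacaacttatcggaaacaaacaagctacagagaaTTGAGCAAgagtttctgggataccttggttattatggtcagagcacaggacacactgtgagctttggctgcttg
Hpgd (chr8:56294302-56294495, plus strand): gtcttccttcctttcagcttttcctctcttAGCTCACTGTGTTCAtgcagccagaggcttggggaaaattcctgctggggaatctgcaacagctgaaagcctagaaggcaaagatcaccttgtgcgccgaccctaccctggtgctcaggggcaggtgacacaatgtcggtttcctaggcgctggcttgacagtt
Acot2 (chr12:83987611-83987664, plus strand): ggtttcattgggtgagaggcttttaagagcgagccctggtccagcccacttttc

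Over the whole 300-base windows, none of the 66 that a flanking peak touched held the full GR element exactly, which 3 of all 32817 windows (0.00914%) did. With at most 3 mismatches, 13 of the 66 windows (19.7%) held it, against 14.5% of all windows. The C/EBP motif was in 22.7% of the touched windows and 10.8% of all, the FOXA motif in 10.6% and 3.65%, and AGGTCA in 31.8% and 16.3%. The repeat TGTTCT was in 22.7% and 19.0%, and the STAT5 motif TTCNNNGAA in 7.58% and 8.29%. FOXA, C/EBP and AGGTCA were thus more frequent in the touched windows, and the GR repeat and STAT5 motifs were about as frequent as in all. These shares describe promoter windows, which are the close end of the set, and a match is not a bound site.

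The distances of the flanking peaks to their genes were bounded by the rule, and no background of other positions was set beside them. Their distance ranged from 1 to 24973 bases, with quartiles at 1804, 5003 and 11336 bases, and 127 were within 250 bases and 290 within 1 kb. Just inside the limit of 25 kb were the peaks beside the pseudogene Gm20954 (24779 bases) and the long non-coding RNA genes Gm30107 (24909) and Particl (24973), and just outside were peaks nearest to Gm35374 (25032), Gm33951 (25071) and Gm18667 (25116). Where the promoter table gave a strand, 608 pairs of peak and gene had the peak upstream and 490 downstream, and 602 pairs had no strand (1700 pairs, since 4 peaks were equally near several genes). In the first kilobase the upstream side held 139 pairs and the downstream side 70.

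**Figure D1:**
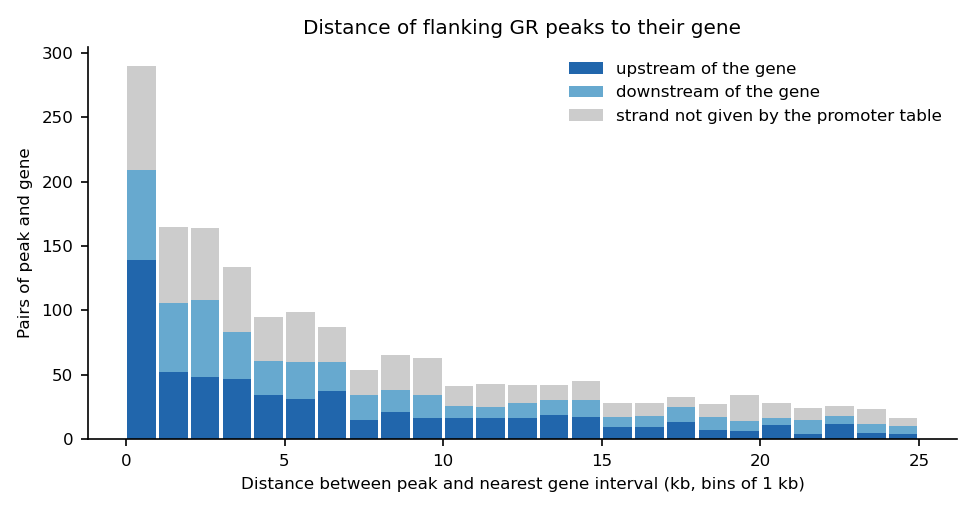
Number of pairs of flanking GR peak and nearest gene (vertical axis) by the distance between them (horizontal axis, kb, bins of 1 kb), split by side. The first bin holds 139 upstream, 70 downstream and 81 pairs without a strand, more than any other bin.

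The peak lists have no height or score. All concordant peaks were 209 bases wide and had the coordinates of peaks in the list called against CRE chromatin (18543 peaks), and they were those peaks of that list that overlapped the list called against input (23683 peaks) by at least 1 base, in 5772 of 5772 cases. Being in both lists is therefore a property of how the concordant list is made up. Of the peaks called against CRE chromatin, 35.7% of the 4754 flanking ones were concordant, against 28.3% of 13000 inside genes and 49.9% of 789 farther away. The centre of a flanking peak was a median of 56 bases from that of the nearest peak called against input, and 58 bases for peaks inside genes. Another concordant peak lay within 10 kb of 438 flanking peaks (25.8%), the same share as for peaks inside genes (25.8%) and more than for distant peaks (18%).

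The nearest genes numbered 1463, of which 763 were protein coding, 467 long non-coding RNA genes and 178 pseudogenes. One flanking peak lay beside 1268 of them, 159 had 2, 30 had 3 and 6 had 4, and 285 also had a concordant peak inside. The peaks placed beside a gene below are its flanking ones. Genes named below that also had a concordant peak inside include Tsc22d3, Angptl4, Got1, Gpt2, Klf15, Gm29669, Aass, Hp, Il1r1 and Nnmt. Insig2, Aldh3a2, Pxylp1, Acacb and Prox1 had one as well. For such genes the changes cannot be assigned to either kind of peak. The genes with 4 were Klf15, a Krueppel-like factor of amino acid metabolism, Gm15322, Gm29669, Gm30931, Gm35741 and the pseudogene Gm9321. RNA was measured well enough for a test in 730 of the 1463 genes in CRE and GFP livers and in 715 in fed and unfed livers, so the counts below leave out the weakly expressed rest.

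Library totals were 34.64 to 78.76 M counts (M, mega; median 53.42) in CRE and GFP livers and 23.87 to 91.77 M (median 43.6) in fed and unfed livers. Levels are given in CPM, counts relative to the summed counts of the gene rows kept for the test, scaled by edgeR's TMM factors. Rows that matched no gene, the row NR_046233 described below among them, are not in that sum. Nr3c1 itself checked the labels. It had 114.2, 135.5 and 146.3 CPM in CRE livers at ZT10, against 239.6, 196.0 and 232.6 CPM in GFP livers. At each of the 6 times the highest CRE value of Nr3c1 was under its lowest GFP value. Its log2 fold change over the 6 times was -0.64 ± 0.06 (SE, edgeR quasi-likelihood test, adjusted p = 1.66e-09). By time, the adjusted p was under 0.05 at ZT10, ZT12, ZT13 and ZT14. It was not at ZT18 (-0.42 ± 0.14, adjusted p = 0.358) and ZT22 (-0.51 ± 0.14, adjusted p = 0.139). Fewer deleted hepatocytes and less deletion per cell cannot be told apart in bulk liver, and neither can fewer cells of a type and less RNA per cell for any gene below. The hepatocyte markers summed to 49500 to 69700 CPM in CRE livers and 57000 to 83200 in GFP livers, with 4 of 8 tested lower, and the part of this in the results was not tested. None of 10 Kupffer, 10 endothelial, 8 stellate, 7 bile duct, 7 lymphoid and 1 neutrophil markers tested was past the threshold. Of 5 red blood cell markers, 1 was higher. One row, NR_046233, took 2.228% to 28.549% of a library's counts. It exceeded 20% in 6 libraries: the 3 GFP libraries and CRE replicate 1 at ZT10, and GFP replicates 1 and 2 at ZT12. In all, 2 livers of the second experiment held transcripts of other tissues. The pancreatic gene Ctrb1 reached 16.0 CPM in fed ZT14 replicate 1 and 89.9 CPM in unfed ZT18 replicate 3, against at most 0.505 CPM in the other 25 libraries, and the smooth muscle gene Myh11 reached 25.1 CPM in the same fed library (genes chosen after their values were seen).

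Genes beside flanking peaks were lower in CRE livers more often than genes in general. Averaged over the 6 times, 157 of 730 were lower in CRE livers (21.5%, against 6.71% of all 15709 genes tested) and 81 were higher (11.1%, against 7.77%), at an adjusted p under 0.05 (edgeR quasi-likelihood test with Benjamini-Hochberg adjustment over all genes). The median log2 fold change was -0.03 for the 730 genes and -0.01 for all. Without the 6 libraries over 20% NR_046233, where no GFP library is left at ZT10 and the mean is over 5 times, 112 were lower (15.2%, against 4.03% of all genes). With every gene within 25 kb assigned to a peak in place of the nearest, 291 of 1603 tested genes were lower (18.2%).

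The share of lower genes was alike across most of the distance range and smaller at its end. It was 25% of 92 genes whose nearest flanking peak was 1 to 250 bases away, 20.8% of 106 beyond that up to 1 kb, 24.5% of 277 up to 5 kb, 22.5% of 120 up to 10 kb and 12.6% of 135 at 10 to 25 kb. Higher genes made up 8.7% in the nearest bin and 12.6% in the farthest. Peaks upstream (71 of 327 genes lower, 21.7%) and downstream (47 of 233, 20.2%) gave nearly the same share. Genes that also had a concordant peak inside were lower in 58 of 208 cases (27.9%), those with flanking peaks alone in 99 of 522 (19.0%), genes with a peak inside and no flanking peak in 332 of 1910 (17.4%), and genes with neither in 565 of 13069 (4.32%). Both shares were smallest below 1 CPM (10.9% beside a flanking peak, 2.3% of all) and largest at 100 CPM or more. Among genes of 10 to 100 CPM, 20.4% of those beside a flanking peak were lower, against 7.64% of all, and among genes of 100 CPM or more the shares were 26.1% and 15.1%. For higher genes the shares were 5.45% and 1.98% below 1 CPM, 10.1% and 5.75% at 1 to 10 CPM and 10.7% and 9.08% at 10 to 100 CPM. At 100 CPM or more the order was reversed, with 13.8% beside a flanking peak and 16.7% of all. Shares of genes are descriptions, since genes are not replicates.

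**Figure D2:**
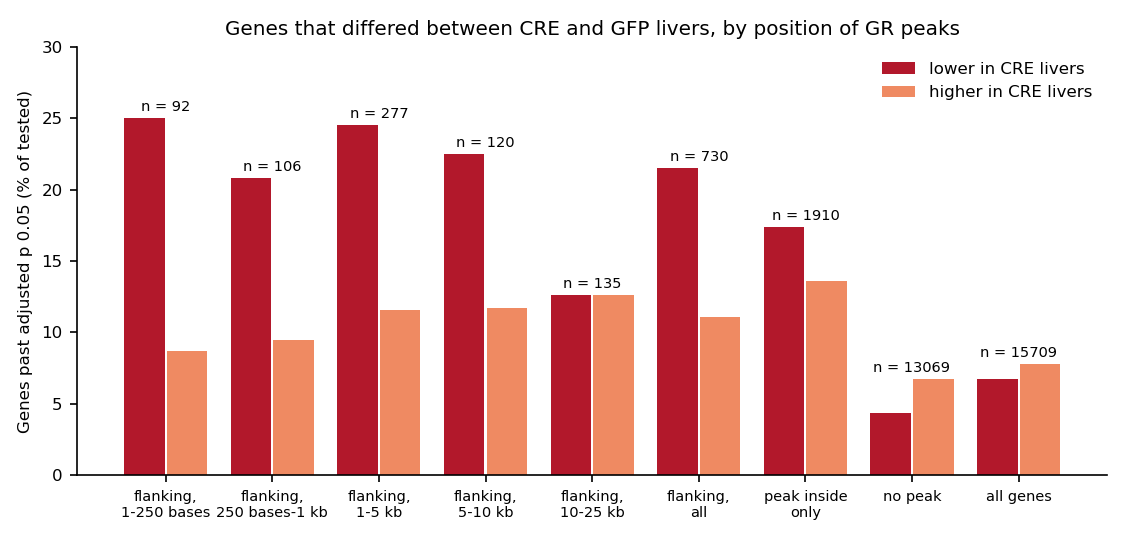
Share of tested genes (vertical axis, %) past adjusted p 0.05 that were lower or higher in CRE than in GFP livers over the 6 times, by where the concordant GR peaks lie; n is the number of genes tested. Lower genes exceed higher ones in each flanking class up to 10 kb, and both are 12.6% at 10 to 25 kb.

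Over the 6 times, the number of flanking peaks went with the share as well. It was 19.3% lower of 631 genes with 1 peak, 31.8% of 85 with 2 and 57.1% of 14 with 3 or more, and none of these 14 was higher. This order was not kept at each single time. For 1, 2 and 3 or more peaks the shares were 1.27%, 2.35% and 0.0% at ZT10 and 7.13%, 7.06% and 35.7% at ZT12. They were 9.83%, 10.6% and 42.9% at ZT13 and 3.17%, 2.35% and 0.0% at ZT14. The 8 lower genes of the last class, named here after their values were seen, were Klf15, Gm29669, 9430083A17Rik, Gadd45g (a stress response gene), Sdc4 (syndecan 4), Slc38a2 (a neutral amino acid transporter), Gpt2 and Serpina1e. Their log2 fold changes ran from -1.38 ± 0.34 for Gadd45g (adjusted p = 0.00424) to -0.21 ± 0.06 for Gpt2 (adjusted p = 0.0215, and 0.173 without the 6 libraries over 20% NR_046233). Klf15 had a median of 140 CPM in CRE livers (lowest 111, highest 187) and 169 CPM in GFP livers (102 to 345, n = 18 each), a log2 fold change of -0.34 ± 0.07 (adjusted p = 0.000375).

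Among the textbook GR targets, 8 of 25 had a flanking peak nearest to them, of which 6 were lower in CRE livers, none higher and G6pc and Sgk1 were not past the threshold. The 8 had a median log2 fold change of -0.75. Over the whole list 20 of 25 were lower, and 13 had a concordant peak inside. Tsc22d3, which encodes the glucocorticoid-induced leucine zipper, had its flanking peak 1436 bases downstream (chrX:140537884-140538092) and also a concordant peak inside. Its level at ZT10 was 33.9, 34.8 and 51.5 CPM in CRE livers and 97.5, 146 and 113 CPM in GFP livers. At ZT18 the groups overlapped, with 108, 115 and 144 CPM in CRE livers and 114, 145 and 125 CPM in GFP livers. Over the 6 times the change was -1.0 ± 0.12 (log2, edgeR adjusted p = 5.99e-07). The difference between fed and unfed times in the CRE change, in which food and hour change together, was not past the threshold for any of the 730 genes. Of all genes 0.121% were past it, 0.0255% with the more negative and 0.0955% with the more positive change at fed times. An unadjusted p under 0.05 (edgeR) was found for 89 of the 730, against 1563 of all 15709. DESeq2 called 5 of the 730, against 72 of all 15709. Dusp1, a MAP kinase phosphatase, changed by -0.63 ± 0.15 (adjusted p = 0.00417), and Ddit4, an inhibitor of mTORC1, by -0.76 ± 0.18 (adjusted p = 0.00357).

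The enzymes and regulators of fasting glucose metabolism were next. Pck1, which makes phosphoenolpyruvate for gluconeogenesis, had its peak 241 bases upstream (chr2:173152624-173152832). It reached 851, 780 and 944 CPM in CRE livers at ZT10, against 2090, 1910 and 1570 CPM in GFP livers, and 448, 472 and 370 CPM in CRE livers at ZT18, against 466, 976 and 326 CPM in GFP livers. The groups were apart before feeding and overlapped at ZT18. Its change over the 6 times was -0.79 ± 0.10 (log2, adjusted p = 1.1e-06). Igfbp1, a binding protein of insulin-like growth factors that insulin represses, had its peak 3081 bases upstream (chr11:7194498-7194706). It had a median of 4.42 CPM in CRE livers (0.735 to 26.5) and 14.5 CPM in GFP livers (2.4 to 113). The change was -1.64 ± 0.31 (adjusted p = 0.000403) and the fold change farthest from 0 was at ZT13 (-4.01 ± 0.82, adjusted p = 0.00232). There the CRE livers had 2.72, 1.04 and 1.56 CPM and the GFP livers 63.1, 19.4 and 3.43 CPM, with no overlap.

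Got1, the cytosolic aspartate aminotransferase, had peaks 324 and 1529 bases upstream and changed by -0.85 ± 0.15 (adjusted p = 0.000141), and Angptl4, an inhibitor of lipoprotein lipase, changed by -0.74 ± 0.15 (adjusted p = 0.000561). G6pc, the glucose-6-phosphatase that ends gluconeogenesis, had a peak on either side (1195 bases downstream and 11496 upstream). Its level was a median of 195 CPM in CRE livers (79.0 to 376) and 239 CPM in GFP livers (83.4 to 476), and its log2 difference of -0.26 ± 0.15 was not past the threshold (adjusted p = 0.268). Of the gluconeogenesis list, 5 of 16 had a flanking peak nearest and 3 of them were lower (8 of all 16 were). Of the insulin signalling list, 4 of 14 had one, and Igfbp1 alone of these was lower (2 of all 14 were). Irs2, an insulin receptor substrate, had a log2 difference of -0.10 ± 0.12 (adjusted p = 0.665).

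Amino acid breakdown and the urea cycle had 7 of 20 genes beside flanking peaks. Of these 5 were lower in CRE livers and none higher, with a median log2 fold change of -0.55, and 12 of the whole list were lower. Cps1, the entry enzyme of the urea cycle, has peaks 5575 and 18271 bases away (chr1:67116643-67116851 and chr1:67103947-67104155). At ZT10 it had 4480, 3460 and 4330 CPM in CRE livers and 7140, 5860 and 6490 CPM in GFP livers, with no overlap. Over the 6 times it changed by -0.55 ± 0.06 (adjusted p = 2.73e-07). Asl, the argininosuccinate lyase, changed by -0.72 ± 0.08 (adjusted p = 5.05e-08) and Aass, of lysine breakdown, by -0.81 ± 0.10 (adjusted p = 3.24e-07).

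Several secreted liver proteins were lower as well. Serpina3k, a serine protease inhibitor of plasma, had its peak 5 bases from the gene interval (chr12:104338273-104338481). Its 18 CRE libraries lay between 1320 and 3860 CPM (median 2890) and its 18 GFP libraries between 3980 and 7040 CPM (median 5590), so the groups did not overlap. The change of -1.08 ± 0.07 (log2, adjusted p = 5.28e-12) was past the threshold at 5 of the 6 times, ZT22 being the exception (adjusted p = 0.0647). Serpina1e, a mouse α1-antitrypsin gene with 3 flanking peaks 4850 to 6468 bases upstream, had a median of 1220 CPM in CRE livers (297 to 2970) and 2600 CPM in GFP livers (1400 to 5290), a change of -1.26 ± 0.24 (adjusted p = 0.000403). Serpina genes are near copies of each other, so counts may be shared between them.

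Of the acute phase and secreted protein list, 6 of 18 genes had a flanking peak nearest and 4 of these were lower. Over the whole list 7 of 17 tested genes were lower and 1 was higher. Lcn2, whose iron-siderophore-binding product rises in inflammation and whose peak covers the sequence shown above, had a median of 0.948 CPM in CRE livers (0.148 to 8.24) and 4.73 CPM in GFP livers (0.484 to 32.0). At ZT13, ZT14, ZT18 and ZT22 each CRE library was below each GFP library, and the change was -2.82 ± 0.39 (adjusted p = 4.21e-06). Hp, haptoglobin, which binds free haemoglobin, had its peak 627 bases away and changed by -0.77 ± 0.10 (adjusted p = 9.36e-07). Fga, also shown above, changed by -0.20 ± 0.05 (adjusted p = 0.0118). Saa1, serum amyloid A, changed by -1.21 ± 0.32 (adjusted p = 0.00828), but by -0.89 with an adjusted p of 0.119 without the 6 libraries over 20% NR_046233 and by -0.97 (adjusted p = 0.0642) when the fit included that share. Il1r1, the interleukin 1 receptor, had a median of 72.4 CPM in CRE livers (34.4 to 170) and 162 CPM in GFP livers (62.3 to 612), a change of -1.35 ± 0.13 (adjusted p = 1.13e-08).

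Further genes with a large fall and the same direction at each of the 6 times were Nnmt, the nicotinamide N-methyltransferase (-1.17 ± 0.16, adjusted p = 2.16e-06), the transcribed pseudogene Gm4956 (-1.22 ± 0.13, adjusted p = 7.11e-08) and the selenium-binding protein gene Selenbp2 (-1.03 ± 0.23, adjusted p = 0.00149). Tedc2, which encodes a subunit of a tubulin complex and has peaks on both sides (369 bases upstream, 2421 downstream), had 16.5 to 44.8 CPM in CRE livers and 43.0 to 94.4 CPM in GFP livers, a change of -1.0 ± 0.08 (adjusted p = 3.26e-10). The highest CRE library was just above the lowest GFP library. Ip6k2, with the sequence shown above, changed by -0.76 ± 0.15 (adjusted p = 0.000396).

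Genes of fatty acid use stood on the other side. Of the fatty acid oxidation and ketogenesis list, 8 of 21 had a flanking peak nearest, of which 4 were higher in CRE livers and Angptl4 alone lower, and 11 of the whole list were higher. Plin2, a coat protein of lipid droplets with peaks 653 and 20074 bases upstream, had 205, 260 and 216 CPM in CRE livers at ZT10 and 134, 133 and 114 CPM in GFP livers. Over the 6 times it changed by 0.66 ± 0.08 (log2, adjusted p = 2.78e-07). Acot2 changed by 0.91 ± 0.20 (adjusted p = 0.00148) and Ppara, the fatty acid sensing receptor, by 0.23 ± 0.06 (adjusted p = 0.00516). Crot, the peroxisomal carnitine octanoyltransferase, is not in that list and changed by 0.52 ± 0.05 (adjusted p = 2.18e-09), and Aldh3a2, a fatty aldehyde dehydrogenase, by 0.70 ± 0.11 (adjusted p = 2e-05).

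Other higher genes had different roles. Gas6, a ligand of the TAM receptors, has its peak far out, 23166 bases upstream, and had a median of 60.3 CPM in CRE livers (39.1 to 115) and 32.5 CPM in GFP livers (13.6 to 58.8), a change of 0.96 ± 0.10 (adjusted p = 5.35e-08). Cd276, an immune checkpoint protein, changed by 0.97 ± 0.12 (adjusted p = 9.49e-07), the carboxylesterase gene Ces1e by 0.74 ± 0.09 (adjusted p = 4.83e-07), Paqr9 by 0.65 ± 0.12 (adjusted p = 0.000375), Pltp, the phospholipid transfer protein, by 0.59 ± 0.14 (adjusted p = 0.00476), Pxylp1 by 0.53 ± 0.10 (adjusted p = 0.000264) and the non-coding AW549542 by 0.70 ± 0.14 (adjusted p = 0.000718). Nrep changed by 0.85 ± 0.22 (adjusted p = 0.00805, and 0.0571 without the 6 libraries). Srebf1, the factor that drives lipogenic genes, was 0.22 ± 0.08 higher (adjusted p = 0.0431), a call lost in 23 of the alternatives, where the adjusted p was 0.0509 to 0.0993.

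**Figure D3:**
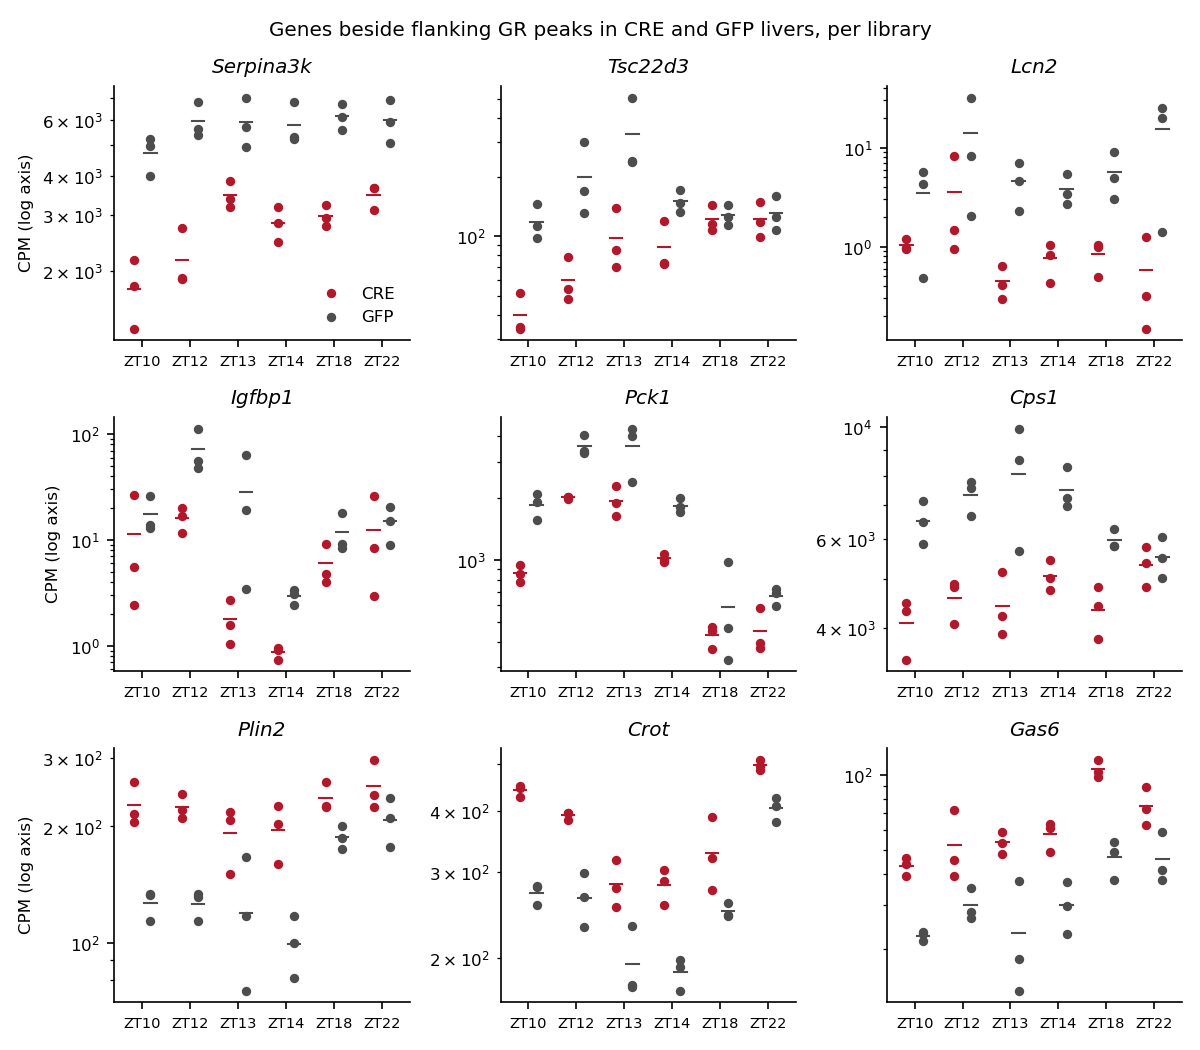
CPM (log axis) of 9 genes beside flanking GR peaks in each library at the 6 times, CRE in red left of GFP in grey, with short lines at the group means (n = 3). Serpina3k stays lower in CRE livers at each time, Tsc22d3 and Pck1 overlap at ZT18, and Plin2, Crot and Gas6 are higher in CRE livers.

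The remaining lists gave few calls beside flanking peaks. Of glycolysis and glycogen genes 5 of 20 had such a peak, and Pklr, the liver pyruvate kinase, was lower (-0.37 ± 0.11, adjusted p = 0.0218, and 0.0647 without the 6 libraries). Of cholesterol genes 3 of 20 had one, and Insig2, which retains the sterol sensor in the endoplasmic reticulum, was lower (-0.37 ± 0.11, adjusted p = 0.0253). That call was lost without GFP ZT12 replicate 2 (adjusted p = 0.0588), when the fit included the NR_046233 share (0.0727) and without the 6 libraries (0.127). Of fatty acid synthesis genes 3 of 20 had one, with Srebf1 the single call. Of 20 liver transcription factors 4 had one, with Ppara higher. Of 18 clock genes 2 had one: Cry1, a repressor of the clock, was lower (-0.28 ± 0.08, adjusted p = 0.0201) and Bhlhe40, another repressor, higher (0.29 ± 0.08, adjusted p = 0.0145), and both lost the call without the 6 libraries (adjusted p = 0.193 and 0.12). Zfp36, which destabilises mRNA and is the 1 of 12 immediate early genes beside a flanking peak, was lower (-0.33 ± 0.10, adjusted p = 0.0284), a call lost in 5 alternatives that each left out 1 library. Of the hepatocyte markers, Cps1 and Alb were lower (Alb by -0.23 ± 0.07, adjusted p = 0.0175, and 0.114 without the 6 libraries), and Cyp2e1 differed by 0.04 ± 0.07 (adjusted p = 0.76). Over the whole lists, 8 of 20 glycolysis and glycogen genes were lower. Of cholesterol genes 4 were lower and 3 higher, and of fatty acid synthesis genes 3 and 7. The counts were 5 and 2 for liver transcription factors and 4 and 5 for clock genes, and 1 immediate early gene was lower.

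At ZT10, the hour of the GR immunoprecipitation, 10 of the 730 genes were lower in CRE livers (1.37%, against 0.484% of all genes) and 3 were higher (0.411%, against 0.223%). In either direction 13 were past the threshold, against 0.707% of all genes. Genes with a peak inside and no flanking peak were lower more often, in 46 of 1910 cases (2.41%), and higher in 4 (0.209%). The lower genes beside flanking peaks included Serpina3k (-1.42 ± 0.18, adjusted p = 4.57e-05), Tedc2 (-1.30 ± 0.21, adjusted p = 0.000931), Tsc22d3 (-1.57 ± 0.31, adjusted p = 0.00808) and Gm4956 (-1.47 ± 0.36, adjusted p = 0.0442). The higher ones were Crot (0.70 ± 0.11, adjusted p = 0.00122), Plin2 (0.84 ± 0.19, adjusted p = 0.0262) and Aspg, an asparaginase (0.58 ± 0.14, adjusted p = 0.0446). Crot had 427, 450 and 445 CPM in CRE livers against 279, 280 and 256 CPM in GFP livers. It was named because its groups did not overlap at ZT10, so this separation follows from the choice. The 13 calls fell to 7, 5 and 8 without GFP replicate 1, 2 and 3 and to 6, 4 and 8 without CRE replicate 1, 2 and 3. Among all genes the 111 calls fell to 61, 69 and 62 and to 78, 43 and 75 in these fits. Without CRE replicate 1 the excess of lower genes was gone, with 2 lower (0.273%, against 0.27% of all genes) and 4 higher. Without CRE replicate 2 the lower share was 0.409%, against 0.232%. In the remaining fits it was 0.546% to 0.955%, against 0.295% to 0.351%. Leaving out GFP replicate 2, CRE replicate 1 or CRE replicate 2 ended the call of Tsc22d3 (adjusted p = 0.0501, 0.0524 and 0.0759), and single libraries also ended those of Gm4956, Plin2 and Aspg. The NR_046233 row took 8.0% to 28.549% of counts in CRE livers and 23.83% to 28.185% in GFP livers at ZT10, and its part in these calls was not tested beyond a fit with it as a covariate, which gave 7 calls.

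The calls were most numerous at ZT12 and ZT13, and food and hour cannot be told apart in these livers. At ZT12, before food, 56 of the 730 were lower in CRE livers (7.67%, against 2.28% of all genes) and 16 higher (2.19%, against 1.36%), and at ZT13, after food, 77 were lower (10.5%, against 3.28%) and 23 higher (3.15%, against 1.81%). At ZT14 the counts were 22 lower (3.01%, against 0.98%) and 9 higher (1.23%, against 0.579%), at ZT18 1 lower (0.137%, against 0.0637%) and none higher (against 0.0382%), and at ZT22 2 lower (0.274%, against 0.0509%) and none higher (against 0.0955%). In either direction, 3.64% of all genes were called at ZT12 and 5.09% at ZT13. Genes with a peak inside and no flanking peak had like shares of lower genes. These were 9.27%, 11.1%, 2.88%, 0.262% and 0.262% of 1910 at ZT12, ZT13, ZT14, ZT18 and ZT22. Single libraries moved the counts, beside flanking peaks and among all genes. At ZT12 the 72 calls fell to 35 without GFP replicate 2 and to 43 without CRE replicate 1, 2 or 3. Among all genes 572 calls fell to 267, and to 339, 318 and 389. At ZT13 the 100 calls became 62, 59 and 157 without GFP replicate 1, 2 and 3, and the 799 of all genes became 375, 405 and 1344. At ZT14 the 31 calls became 9 without GFP replicate 1 and 10 without CRE replicate 2 or 3. Of all genes, 245 calls became 79, 74 and 78 there. At ZT18 the 1 call was lost when GFP replicate 1, GFP replicate 2, CRE replicate 1 or CRE replicate 3 was left out. In those fits 2, 1, 3 and 3 of all genes were called, against 16 in the main fit. At ZT22 the 2 calls became 8, 0 and 1 without GFP replicate 1, 2 and 3 and 1, 0 and 0 without CRE replicate 1, 2 and 3. The 23 calls among all genes became 58, 3 and 24 and 13, 10 and 3. At ZT18 and at ZT22, edgeR's test gave an unadjusted p under 0.05 for 97 of the 730 genes, against 1279 and 1713 of all 15709. DESeq2 called 13 and 11 of the 730, against 80 and 92 of all 15709. With only the 2 groups of a time in the fit, the calls were 20 at ZT10, 120 at ZT12 and 6 at ZT13. Among all genes these fits called 143, 785 and 55. Without the libraries over 20% NR_046233 there were 17 at ZT12, against 106 of all genes.

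**Figure D4:**
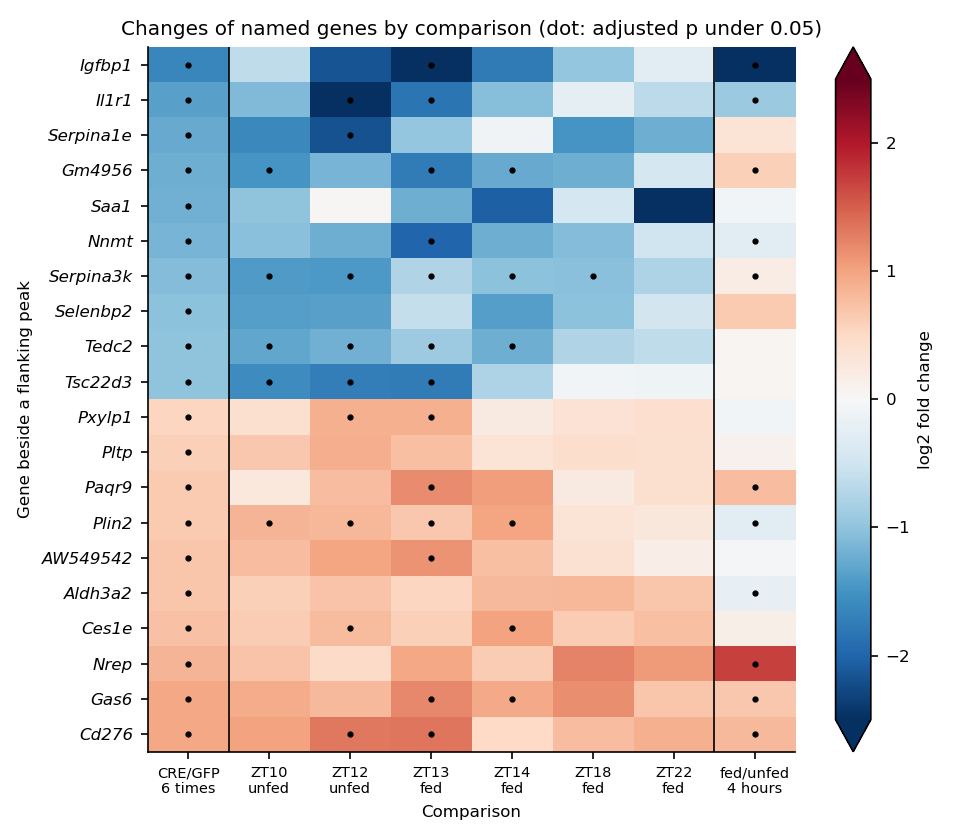
Log2 fold change (colour, limited to 2.5 either way) of the 20 genes beside flanking peaks with the largest changes in the same direction at each time, for CRE over GFP livers (mean and 6 times) and for fed over unfed C57BL/6 livers (right column); dots mark an adjusted p under 0.05. Dots in the single-time columns are most frequent at ZT13 and absent at ZT22.

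In C57BL/6 livers, genes beside flanking peaks were also lower with food more often than genes in general. Over the 4 hours, 217 of 715 were lower in fed livers (30.3%, against 17.9% of all 14741 genes tested) and 137 were higher (19.2%, against 17.5%). The median log2 fold change was -0.05, against 0.01 for all genes. Genes with a peak inside and no flanking peak had a like share, 29.5% of 1873 lower. The gap depended on expression level. Among genes of 100 CPM or more, 38.6% of those beside a flanking peak were lower, against 30.4% of all. The shares were 32.4% and 24.1% at 10 to 100 CPM, 21.8% and 10.8% at 1 to 10 CPM, and 3.7% and 3.4% below 1 CPM.

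Among the lower genes, Igfbp1 had 6.25 to 77.8 CPM in fed livers (median 15.4) and 66.2 to 254 CPM in unfed livers (median 112, n = 12 each), a change of -2.81 ± 0.20 (edgeR adjusted p = 6.77e-11). Pck1 had a median of 2590 CPM in fed livers (751 to 4500) and 5610 CPM in unfed livers (4570 to 6370) and changed by -1.40 ± 0.14 (adjusted p = 3.38e-08), with no overlap between the groups. Angptl4 had 30.3 to 123 CPM in fed livers and 164 to 290 CPM in unfed livers, also apart, and changed by -1.66 ± 0.14 (adjusted p = 1.49e-09). Ip6k2 changed by -1.30 ± 0.15 (adjusted p = 3.37e-07), Irs2 by -1.22 ± 0.15 (adjusted p = 4.42e-07) and Mycl, a MYC family factor, by -1.18 ± 0.17 (adjusted p = 6.86e-06). All 8 fatty acid oxidation genes beside flanking peaks were lower in fed livers, among them Fgf21, the fasting hormone (-2.76 ± 0.30, adjusted p = 7.88e-08) and Ppara (-0.69 ± 0.06, adjusted p = 1.48e-09). How many of all 21 genes of that list were lower with food was not counted. The 8 are therefore not set apart from the rest of the list.

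Among the higher genes, Srebf1 had 324 to 509 CPM in fed livers (median 395) and 48.1 to 179 CPM in unfed livers (median 119), with no overlap, a change of 1.78 ± 0.11 (adjusted p = 4.59e-12). Nudt7, a peroxisomal CoA diphosphatase with its peak 2510 bases upstream, had a median of 620 CPM in fed livers (388 to 997) and 221 CPM in unfed livers (68.3 to 496) and changed by 1.56 ± 0.14 (adjusted p = 5.91e-09). Msmo1, an enzyme of cholesterol synthesis, changed by 1.22 ± 0.12 (adjusted p = 2.68e-08) and Pklr by 0.99 ± 0.08 (adjusted p = 1.7e-09). Serpina4-ps1, a transcribed pseudogene of the Serpina4 family, changed by 2.13 ± 0.36 (adjusted p = 4.33e-05), Nrep by 1.71 ± 0.20 (adjusted p = 2.07e-07), Nat8f5, of the N-acetyltransferase 8 family, by 1.45 ± 0.14 (adjusted p = 2.2e-08) and the glutathione transferase gene Gstm3 by 1.06 ± 0.12 (adjusted p = 1.15e-07).

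By hour, 17 of the 715 genes were lower in fed livers at ZT13 (2.38%, against 0.638% of all genes) and 4 higher (0.559%, against 0.475%). At ZT14, 61 were lower (8.53%, against 3.37%) and 17 higher (2.38%, against 2.25%). At ZT18, 160 were lower (22.4%, against 13.1%) and 86 higher (12.0%, against 13.3%), and at ZT22, 114 were lower (15.9%, against 9.77%) and 106 higher (14.8%, against 10.5%). In either direction, 1.11%, 5.62%, 26.4% and 20.2% of all genes were called at ZT13, ZT14, ZT18 and ZT22. Of 1873 genes with a peak inside and no flanking peak, 0.961%, 5.71%, 23.7% and 14.6% were lower at these hours. With only the 2 groups of an hour in the fit, there were 134 calls beside flanking peaks at ZT14 and 137 at ZT22, against 78 and 220 with all groups. Among all genes there were 1317 and 1750, against 828 and 2981. DESeq2 called 37 at ZT13, against 21, and 350 of all genes, against 164. At ZT13 the 21 calls fell to 4 and 10 without fed replicate 2 and 3, and to 9 and 13 without unfed replicate 2 and 3. Among all genes 164 calls fell to 40 and 85, and to 76 and 72. At ZT14 the 78 calls fell to 37 and 46 without fed replicate 1 and 3 and to 38, 36 and 43 without unfed replicate 1, 2 and 3. Without the 2 libraries that held transcripts of other tissues they fell to 41. Among all genes 828 calls fell to 408 and 498, to 388, 388 and 450, and to 443.

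Both experiments tested 713 of the genes, and they share no library. Of the 156 genes beside a flanking peak that were lower in CRE livers, 68 (43.6%) were also lower in fed livers and 19 (12.2%) were higher. Over all genes tested in both, 413 of the 1042 lower in CRE livers (39.6%) were lower in fed livers, so the genes beside flanking peaks were close to the background in this respect. Igfbp1, Pck1, Angptl4, Ip6k2, Got1, Asl, Aass, Hp and Il1r1 were lower in both. Serpina4-ps1 (-1.43 ± 0.31 in CRE livers, adjusted p = 0.00139), Gstm3 (-0.45 ± 0.11, adjusted p = 0.00485), Gm4956 and Serpina3k were lower in CRE livers and higher in fed livers. Lcn2, Tsc22d3 and Tedc2 were lower in CRE livers, and in fed livers their log2 differences were 0.03 ± 0.21 (adjusted p = 0.934), 0.05 ± 0.12 (adjusted p = 0.777) and 0.04 ± 0.08 (adjusted p = 0.778).

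**Figure D5:**
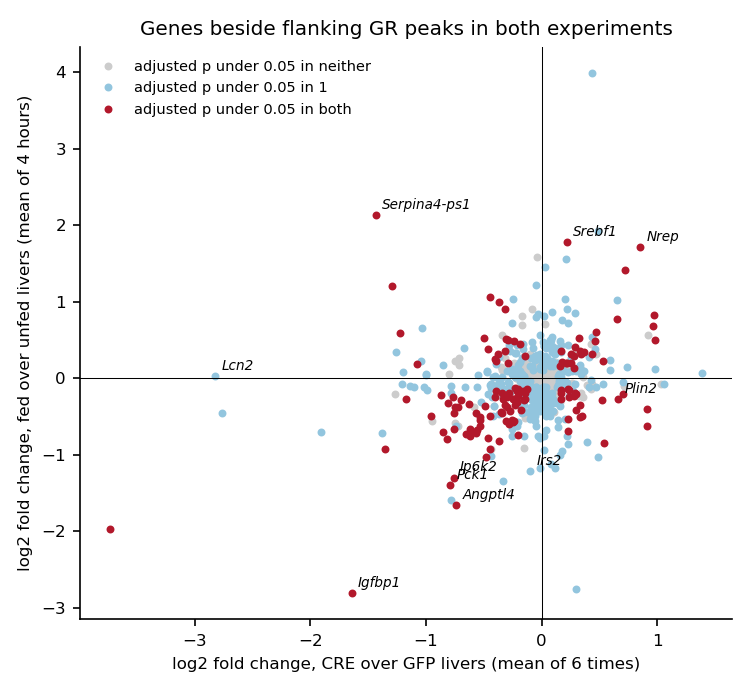
Log2 fold changes of the 713 genes beside flanking GR peaks tested in both experiments, CRE over GFP livers (horizontal axis, mean of 6 times) and fed over unfed livers (vertical axis, mean of 4 hours), coloured by how many of the comparisons had an adjusted p under 0.05. Igfbp1, Angptl4, Pck1 and Ip6k2 lie at the lower left and Serpina4-ps1 at the upper left.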

How the data were processed

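The authors deposited read counts per RefSeq transcript row for liver RNA, and peak lists without scores; STAR, HOMER, DESeq2 and the builds mm10 and rn5 are named in the submitters' processing notes, without versions or roles. In all, 12 value columns of rat hepatocytes were not used. Of 40458 rows, 40214 matched a gene (24786 genes), and of several rows of 1 gene the one with the highest total was used.

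Peaks were set against RefSeq gene intervals of GRCm38.p6, deposited starts being read as counted from 0. The sources do not state this, and an error would shift them by 1 base. Counts were tested with edgeR 4.0.16 (R 4.3.3; TMM, filterByExpr, quasi-likelihood F-test, Benjamini-Hochberg over all genes tested, threshold 0.05), with all groups of an experiment in 1 fit. The test was checked on simulated counts. Genes were named where they belong to fixed genes or lists (up to 4 a list), had the largest changes in the same direction at each time with at least 5 CPM, or had the most peaks. Others were named for the largest changes at ZT10 without overlap between the groups, or for the nearest and farthest peaks. The members and lists were chosen with earlier results of these data known. Alternatives were DESeq2 1.42.0, no filter, the lowest-count row, a replicate block, 2 groups alone, NR_046233 as a covariate or without libraries over 20% of it, each library left out, and other ways of assigning genes to peaks. Library totals were 23.87 to 91.77 M counts, with 3 libraries per group and time.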

Additional observations from a re-analysis of the deposited data

How the results depend on the processing

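Over the 6 times, the 238 calls beside flanking peaks were 250 with DESeq2, 228 without a filter and 210 with the NR_046233 share as a covariate. They were 168 without libraries over 20% of it and 216 to 245 without single libraries. Among all genes the 2274 calls were 2506, 2062, 1958, 1355 and 2061 to 2495 in the same fits. Over the 4 hours of feeding 354 calls became 326 to 354 without single libraries, and 5214 among all genes became 4822 to 5316. Leaving out single libraries gave 4 to 8 calls at ZT10, 35 to 66 at ZT12, 59 to 157 at ZT13, 9 to 24 at ZT14, 0 to 1 at ZT18 and 0 to 8 at ZT22. It gave 0 to 2 for the difference between fed and unfed times, and for food 4 to 30 at ZT13, 36 to 61 at ZT14, 182 to 251 at ZT18 and 162 to 213 at ZT22. Among all genes it gave 43 to 78, 267 to 484, 375 to 1344, 74 to 223, 1 to 6 and 3 to 58 at the 6 times. For the difference between fed and unfed times it gave 6 to 32 among all genes. For food it gave 40 to 434, 388 to 652, 2561 to 3991 and 2290 to 2724 among all genes. Counting every gene within 25 kb tests more genes, 1603 in CRE and GFP livers and 1552 for food. It gave 434 calls over the 6 times, and 28, 133, 177, 58, 3 and 5 at ZT10, ZT12, ZT13, ZT14, ZT18 and ZT22. For the difference between fed and unfed times it gave 4. For food it gave 717 over the 4 hours and 34, 141, 537 and 456 at ZT13, ZT14, ZT18 and ZT22. For the other changes the cause was not tested. DESeq2 called 24 at ZT10, 13 at ZT18, 11 at ZT22, 5 for the difference between fed and unfed times and 37 for food at ZT13. Among all genes it called 196, 80, 92, 72 and 350. With 2 groups alone in the fit there were 20 at ZT10, 120 at ZT12, 6 at ZT13, 11 at ZT18, 0 at ZT22 (main 2), and for food 134 at ZT14 and 137 at ZT22. Among all genes there were 143, 785, 55, 65 and 0, and for food 1317 and 1750. The NR_046233 covariate gave 7 at ZT10, 36 at ZT12 and 4 at ZT22, and among all genes 53, 241 and 34. Leaving out libraries over 20% gave 17 at ZT12, 1 at ZT22 and no value at ZT10, and among all genes 106 at ZT12 and 10 at ZT22. Without a filter 2 genes were called at ZT18, and with the nearest tested gene 4 at ZT22 and 1 for the difference between fed and unfed times. Without the 2 libraries with other tissue, food gave 41 at ZT14. The replicate block left 238 calls over the 6 times and gave 3 at ZT18 and 360 for food; replicates of 1 number did not deviate together (r over 0.1 in 3 of 18 and 0 of 12 pairs), so they share only a number. The share of touched windows with a GR element, 0.0% exactly, was 22.7% for its repeat TGTTCT and 3.03% and 19.7% with at most 2 and 3 mismatches, the last 2 chosen after seeing the data, as was the nearest tested gene. Motifs in 200-base windows were not run. Among named genes, Acacb changed sign to 0.00, 0.02 and 0.08 without GFP ZT10 replicate 1, without GFP ZT13 replicate 2 and without libraries over 20%, Msmo1 to 0.00 without GFP ZT14 replicate 1, and Prox1 to -0.01 and -0.00 without CRE ZT13 replicate 3 and without CRE ZT14 replicate 1; none of these 3 was past the threshold, and without single libraries they ranged over -0.10 to 0.02, -0.11 to 0.00 and -0.01 to 0.14.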
